A study of Homo sapiens with 4 samples.

Results

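The antioxidant genes described here are catalase, the superoxide dismutases, the glutathione peroxidases, the peroxiredoxins, the thioredoxin and glutathione systems, quinone reductases and the regulators of the NRF2 pathway. They were chosen by gene symbol from a list of 41, and all 41 were among the 28103 symbols of the count table. RNA with poly(A) tails was sequenced from HEL cells, an established erythroleukaemia line of human origin that the labels call an erythroblast, in 2 libraries labelled Ctrl with wild-type genotype and 2 labelled AFF4 knockdown (AFF4_KD). AFF4 is the backbone protein of super elongation complexes, which help paused RNA polymerase II to resume transcription. How and for how long AFF4 was knocked down is not stated in the sources used here, no treatment is named, and nothing in the labels says whether the libraries of a group came from separate cultures. The p-values thus reflect the scatter among these 4 libraries, which may be technical.

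Cells make superoxide and hydrogen peroxide as by-products of respiration and of oxidases. Superoxide dismutases convert superoxide to hydrogen peroxide, which catalase, peroxiredoxins and glutathione peroxidases then reduce. Peroxiredoxins are recharged by thioredoxin, glutathione peroxidases by glutathione, and both of these draw on NADPH. The transcription factor NRF2 (gene NFE2L2), held in check by KEAP1, induces many of these genes through the antioxidant response element. Red cell precursors are rich in catalase, peroxiredoxin 2 and glutathione peroxidase 1, which protect haemoglobin and the membrane.

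Total counts lay between 14903878 and 19129008 per library. AFF4 was at 88.3 and 69.2 CPM (counts scaled to a common library size by the TMM method) in Ctrl and at 18.7 and 18.9 CPM in the knockdown, so the libraries labelled as knockdown were low in the targeted gene. The 12 erythroid and megakaryocytic markers examined were all detected. Their summed level was 12982 and 15126 CPM in Ctrl and 9931 and 9881 CPM in the knockdown, a difference that lay in the fetal globin genes HBG1 (mean 4165 against 2292 CPM, edgeR adjusted p = 0.0394) and HBG2 (6556 against 4091 CPM, adjusted p = 0.0641). The other 10 summed to 2941 and 3726 CPM in Ctrl and to 3452 and 3594 CPM in the knockdown, with overlapping groups. Within that sum single markers differed in both directions without overlap of the groups. PF4 was lower (mean 9.13 against 4.51 CPM). EPOR (29.3 against 49.3 CPM), TFRC (710.6 against 931.3 CPM) and TAL1 (435.7 against 474.5 CPM) were higher. Their edgeR adjusted p lay between 0.105 and 0.730, and the remaining markers had overlapping groups. The part of these levels in the results was not tested. Of the 22 markers of lymphocytes, monocytes, fibroblasts, epithelium and hepatocytes, 9 were at 0 throughout and 20 lay under 1 CPM on average, CD79A and EPCAM being the exceptions, and no list summed to more than 2.41 CPM in any library. The Ctrl libraries differed from each other far more than the knockdown libraries did. The chi-square of the counts per degree of freedom, which is 1 for pure sampling noise, was 44 between the Ctrl libraries and 2.5 between the knockdown libraries.

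In the knockdown, catalase was the 1 antioxidant gene called higher, and 0 were called lower, by the main test described next. Of the 41 genes, 39 passed the filter on low counts and were tested. Calls were made by edgeR's quasi-likelihood test at a Benjamini-Hochberg adjusted p under 0.05 over 13572 tested genes, of which 0.346% were higher and 0.295% lower. Before adjustment, 5 antioxidant genes with p under 0.05 were higher (CAT, PRDX1, GCLC, GLRX and GSTM3) and 3 lower (GPX8, TXNIP and SQSTM1), where 6.79% and 8.19% of all tested genes were. DESeq2 called 1 higher and 1 lower (1.39% and 1.64% of all) and limma-voom 1 higher and 0 lower (0.391% and 0.287%). The knockdown libraries lay above both Ctrl libraries in 12 of the 39 genes and below both in 8, where 23.1% and 23.0% of all tested genes did so. The median log2 fold change was 0.05 over the 39 genes and -0.01 over all tested genes. Of the 39, 27 lay within 0.25 of no change on the log2 scale. The summed share of the 41 genes was similar across libraries, at 0.622% to 0.631% of a library's counts. Bulk RNA cannot tell a change in RNA per cell from a change in the mix of cells.

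**Figure D1:**
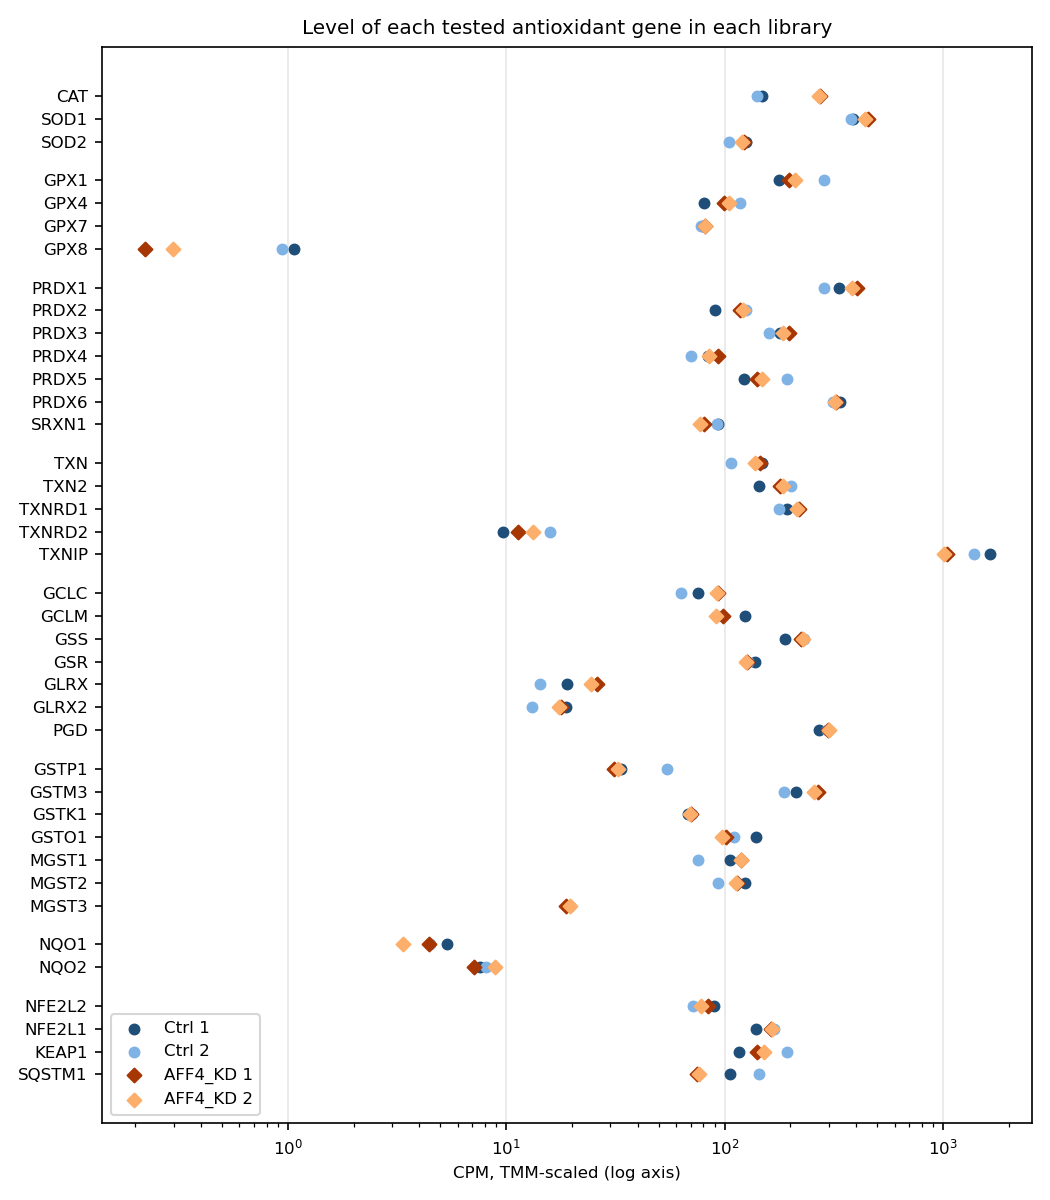
Level of each of the 39 tested antioxidant genes in each library, as CPM on a log axis, with circles for Ctrl and diamonds for AFF4_KD, grouped by role. The knockdown libraries lie close together, the Ctrl libraries are often farther apart than the groups, and CAT is at 148.1 and 140.1 CPM in Ctrl and at 274.7 and 270.8 CPM in the knockdown.

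Catalase (CAT), the haem enzyme of peroxisomes that splits hydrogen peroxide into water and oxygen, lies on chromosome 11 from 34438925 to 34472062 on the plus strand (hg38). Its level was 148.1 and 140.1 CPM in the Ctrl libraries and 274.7 and 270.8 CPM in the knockdown libraries. Both knockdown libraries lay well above both Ctrl libraries, and the pairs within each group were close. The mean rose from 144.1 ± 5.64 to 272.7 ± 2.69 CPM (SD, n = 2 each), which is 1.89-fold, or 0.92 ± 0.13 on the log2 scale (SE; edgeR adjusted p = 0.0415). The log2 fold change stayed between 0.88 and 0.96 over 14 alternative settings. The call was lost without AFF4_KD 1 (edgeR adjusted p = 0.490), without AFF4_KD 2 (0.731) and with a filter of at least 5 CPM in 2 libraries (0.0660), the range over the alternatives being 1.17e-38 to 0.731.

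The bases before the catalase start are shown because this is the called gene, with CCAAT, the motif bound by the factor NF-Y, marked. The stretch is chr11:34438684-34438933, plus strand, from RefSeq on GRCh38.p14, and capitals mark each CCAAT on either strand.
CAT: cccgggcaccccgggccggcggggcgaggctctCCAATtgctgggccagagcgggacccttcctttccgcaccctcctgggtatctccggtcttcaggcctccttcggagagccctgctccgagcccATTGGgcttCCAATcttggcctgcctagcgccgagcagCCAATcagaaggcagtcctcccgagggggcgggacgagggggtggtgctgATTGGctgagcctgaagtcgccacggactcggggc
The catalase promoter held 5 matches to CCAAT. Among the 27305 promoters of the RefSeq table, each of 250 bases before to 50 after the start, 0.403% held at least as many, and 35.7% held at least 1. NFE2L1, whose groups overlapped, also held 5 matches, and 11 of the 34 antioxidant genes with a promoter in the table held at least 1, or 32.4%. The motif was chosen for display after the values were seen.

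The superoxide dismutases lay near their Ctrl level. SOD1, the copper-zinc enzyme of the cytosol, was at 385.2 and 378.2 CPM in Ctrl and at 451 and 437.8 CPM in the knockdown. The groups did not overlap, but the log2 fold change was small, at 0.22 ± 0.12 (SE; edgeR adjusted p = 0.478). SOD2, the manganese enzyme of mitochondria, had 0.07 ± 0.15 and overlapping groups. SOD3, the secreted enzyme, had 1 count in Ctrl 2, 1 in AFF4_KD 2 and 0 in the others, and was not tested.

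Among the glutathione peroxidases, 0 of the 4 tested passed the test, and GPX3, the plasma enzyme, had 0 counts in each library. GPX8, an endoplasmic reticulum member of the family, had 20 and 14 counts in Ctrl and 4 and 5 in the knockdown. This is 1.07 and 0.937 CPM against 0.221 and 0.297 CPM, with the knockdown below Ctrl and both at a very low level. Its log2 fold change was -1.94 ± 0.43 (SE; edgeR adjusted p = 0.103). GPX1, the abundant cytosolic enzyme, was at 178.2 and 286.3 CPM in Ctrl and at 196.9 and 210.1 CPM in the knockdown. Both knockdown libraries lay between the Ctrl libraries, and the log2 fold change was -0.19 ± 0.22 (SE; adjusted p = 0.787). Its sign depended on the Ctrl library used, at -0.49 without Ctrl 1 and 0.19 without Ctrl 2. GPX4, which reduces lipid peroxides in membranes, and GPX7 had log2 fold changes of 0.05 and 0.04.

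Of the 6 peroxiredoxins and sulfiredoxin, 0 passed the test. PRDX1, a cytosolic peroxiredoxin, was at 332.3 and 283.7 CPM in Ctrl and at 405 and 381.2 CPM in the knockdown, with the knockdown above Ctrl. Its log2 fold change was 0.35 ± 0.14 (SE; edgeR adjusted p = 0.304). PRDX3 of mitochondria and PRDX4 of the endoplasmic reticulum had 0.18 and 0.21, also with groups that did not overlap. PRDX2, the peroxiredoxin best known from red cells, was at 90.7 and 125.4 CPM in Ctrl and at 118.1 and 120.9 CPM in the knockdown. Both knockdown libraries of PRDX2 lay within the Ctrl range, and its log2 fold change was 0.15 ± 0.19 (SE; adjusted p = 0.806). PRDX5 and PRDX6 had -0.13 and -0.02. SRXN1, sulfiredoxin, which repairs over-oxidised peroxiredoxins and is a target of NRF2, was at 93.3 and 92 CPM in Ctrl and at 80.1 and 77.5 CPM in the knockdown. The knockdown was below Ctrl by -0.23 ± 0.14 (log2, SE; adjusted p = 0.518).

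In the thioredoxin system 0 of 5 genes passed the test, and the inhibitor TXNIP had the smallest p. TXNIP, which binds thioredoxin and restrains glucose uptake, was the most abundant antioxidant gene per length, at 416.2 CPM per kilobase of exon in Ctrl and 283.9 in the knockdown. Its level was 1636 and 1382 CPM in the Ctrl libraries and 1046 and 1013 CPM in the knockdown libraries. The knockdown lay below both Ctrl libraries, by more than the gap between them. The log2 fold change was -0.55 ± 0.13 (SE; edgeR adjusted p = 0.119), or 0.682-fold. It passed with no filter on low counts (adjusted p = 0.0119) and did not pass in DESeq2 (0.0882). Over the 14 alternatives the lowest adjusted p of TXNIP was 6.16e-26 and the highest 0.99993.

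TXNIP is known to be induced by glucose through a carbohydrate response element, in which paired E-box-like sites are bound by MondoA and ChREBP. The stretch before its start is shown because it holds a match to that element. It is chr1:145996580-145996729, minus strand, from RefSeq on GRCh38.p14, and capitals mark the match to CACGNG and CNCGNG set 5 bases apart.
TXNIP: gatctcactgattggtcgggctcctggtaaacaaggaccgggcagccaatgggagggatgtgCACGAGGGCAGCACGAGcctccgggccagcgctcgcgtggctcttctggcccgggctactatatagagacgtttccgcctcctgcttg
Searched on both strands, this motif was in 0.524% of all promoters in the table and in 0.848% of those of tested genes. It was in 3 of the 34 antioxidant genes with a promoter there (8.82%), TXNIP, GPX1 and SQSTM1. The search was chosen after the values were seen, and a match of letters does not show that a factor binds.

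The other thioredoxin genes had small differences. TXNRD1, the cytosolic reductase that recharges thioredoxin with NADPH, was at 193.7 and 177.1 CPM in Ctrl and at 219.3 and 214.5 CPM in the knockdown. The knockdown was above Ctrl, with 0.23 ± 0.13 on the log2 scale (SE; edgeR adjusted p = 0.503). Thioredoxin itself (TXN) and the mitochondrial TXN2 and TXNRD2 had 0.15, 0.08 and -0.05, each with overlapping groups.

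Of the 7 genes of glutathione synthesis, reduction and NADPH, 0 passed the test. Their median log2 fold change was 0.10, and 5 were positive (48.8% of all tested genes were), of which GSS and GLRX2 had overlapping groups. GLRX, glutaredoxin, which removes glutathione from oxidised proteins, was at 18.9 and 14.3 CPM in Ctrl and at 25.9 and 24.4 CPM in the knockdown. The groups did not overlap, and the log2 fold change was 0.60 ± 0.21 (SE; edgeR adjusted p = 0.244). GCLC, the catalytic subunit of the rate-limiting enzyme of glutathione synthesis, was at 75.4 and 62.9 CPM in Ctrl and at 92.9 and 92.1 CPM in the knockdown, a log2 fold change of 0.42 ± 0.16 (SE; adjusted p = 0.286). Its regulatory partner GCLM had the other sign, -0.19 ± 0.18, with overlapping groups. GSS, which completes glutathione, and GSR, which reduces it, had 0.10 and -0.08. PGD, an NADPH-producing enzyme of the pentose phosphate pathway, was at 271.8 and 294.5 CPM in Ctrl and at 298.3 and 299.6 CPM in the knockdown, a log2 fold change of 0.08 ± 0.13 (SE), from 0.02 to 0.14 with 1 library left out.

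Glutathione transferases, which attach glutathione to reactive compounds, had both signs, and 0 of 7 passed the test. GSTM3 was at 212.5 and 187.3 CPM in Ctrl and at 268.1 and 255.4 CPM in the knockdown, a log2 difference of 0.39 ± 0.14 (SE; edgeR adjusted p = 0.258). MGST1, a membrane-bound transferase and peroxidase, was at 105.4 and 75.5 CPM in Ctrl and at 118.9 and 119 CPM in the knockdown, with 0.39 ± 0.19 (SE; adjusted p = 0.398), and MGST1 ranged from 0.17 to 0.66 with 1 library left out. In both the knockdown was above Ctrl, and for MGST1 the Ctrl libraries lay far apart. GSTP1 and GSTO1 had -0.47 ± 0.25 and -0.34 ± 0.17 (SE) with the knockdown below Ctrl, while GSTK1, MGST2 and MGST3 lay between -0.01 and 0.07. The quinone reductase NQO1, a classical NRF2 target, was low, at 5.35 and 4.49 CPM in Ctrl and at 4.42 and 3.39 CPM in the knockdown (log2 fold change -0.34 ± 0.25, SE; adjusted p = 0.612). NQO1 ranged from -0.51 to -0.15 with 1 library left out. NQO2 was at 7.60 and 8.10 CPM in Ctrl and at 7.13 and 8.85 CPM in the knockdown, with overlapping groups and 0.03 ± 0.21 (SE; adjusted p = 0.975).

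Of the regulators, NFE2L2 and KEAP1 had overlapping groups. NFE2L2, which encodes NRF2, was at 89.1 and 71.4 CPM in Ctrl and at 83.6 and 78.2 CPM in the knockdown, 0.01 ± 0.17 on the log2 scale (SE; edgeR adjusted p = 0.988). KEAP1, the adaptor that targets NRF2 for degradation, was at 116.9 and 193.8 CPM in Ctrl and at 140.8 and 151.4 CPM in the knockdown. NFE2L1, a related factor that drives proteasome genes, was at 139 and 168.4 CPM in Ctrl and at 163.5 and 164.5 CPM in the knockdown, also overlapping (0.09 ± 0.15, SE; adjusted p = 0.861). SQSTM1 encodes p62, an autophagy receptor that binds KEAP1 and is itself an NRF2 target. It was at 106 and 143.6 CPM in Ctrl and at 74.4 and 76.1 CPM in the knockdown, below both Ctrl libraries. Its log2 fold change was -0.73 ± 0.18 (SE; adjusted p = 0.133), or 0.603-fold, and it passed in DESeq2 (adjusted p = 0.0322), in a range over the alternatives of 4.79e-34 to 0.99993. It ranged from -0.93 without Ctrl 1 to -0.49 without Ctrl 2. Of the exonic length of SQSTM1, 20.7% overlaps MRNIP on the opposite strand, and whether reads were counted by strand is not stated in the sources used here. MRNIP had a mean of 5.45 CPM in Ctrl and a mean of 5.31 CPM after knockdown. PRDX1 likewise shares 24.9% of its exonic length with MMACHC, which had means of 19.3 and 17.0 CPM. The effect of these overlaps on the counts of SQSTM1 and PRDX1 was not tested. SRXN1 shares 84.95% of its exonic length with AL121758.1 on the same strand, so its value is uncertain. NFE2L2 shares 17.6% with AC019080.1 on the same strand, and NQO1 17.7% and PRDX2 14.1% with antisense genes. These partners of SRXN1, NFE2L2, NQO1 and PRDX2 were not found in the count table, so they were not analysed here.

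**Figure D2:**
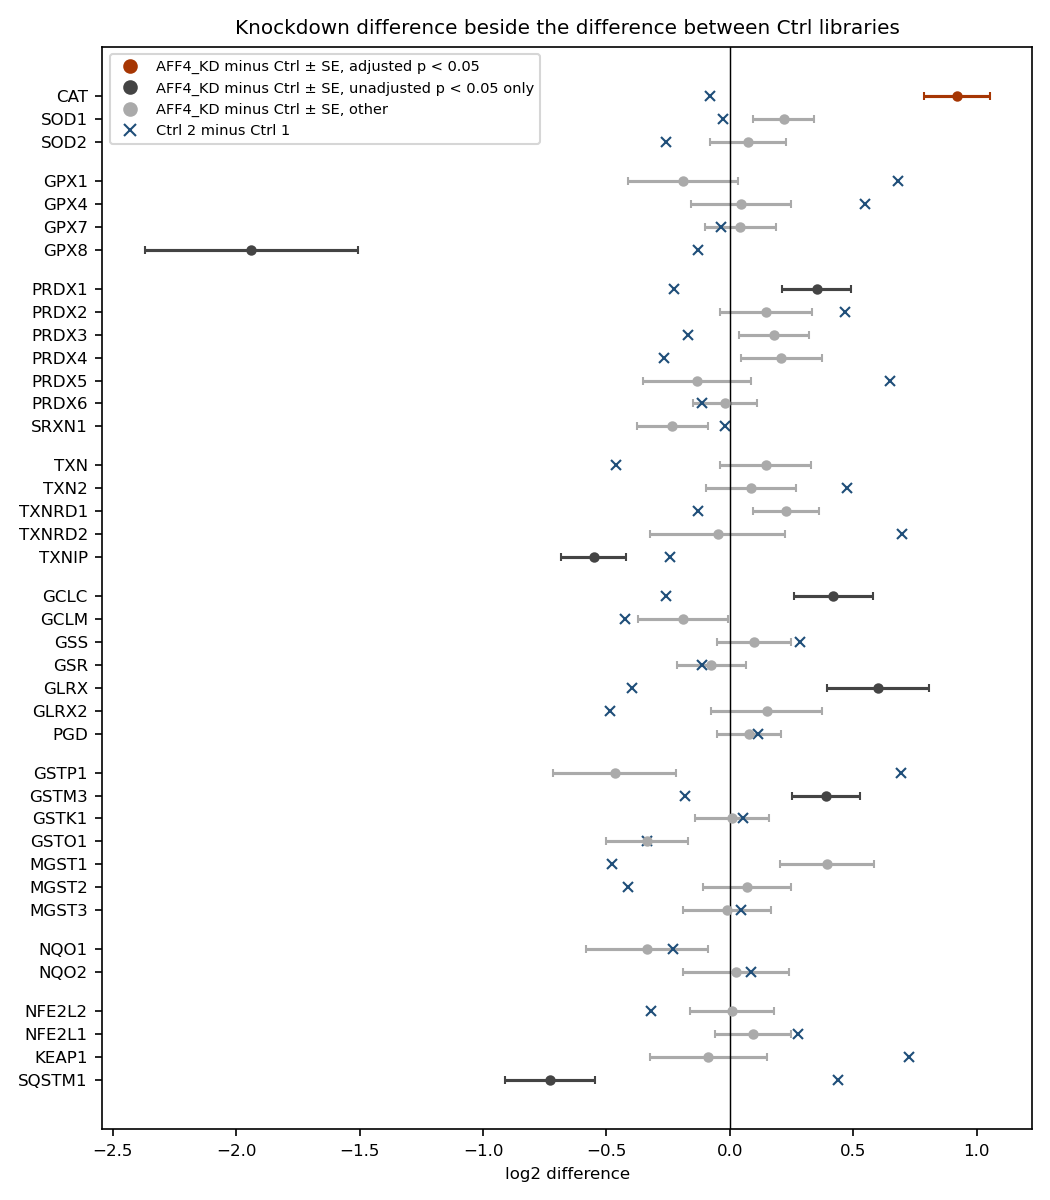
Log2 difference between AFF4_KD and Ctrl with its SE for each tested antioxidant gene (circles) beside the log2 difference between the Ctrl libraries (crosses). CAT is the 1 gene past the adjusted threshold, and for 15 of the 39 genes the knockdown difference is larger in size than the difference between the Ctrl libraries.

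Antioxidant response elements were looked up because NRF2 acts through them. The motif TGACNNNGC was searched on both strands, only from 250 bases before to 50 after the start. It was in the promoters of 5 of the 34 antioxidant genes with a RefSeq promoter, or 14.7%. It was in 13.6% of all promoters in the table and in 15.5% of those of tested genes. The share was thus near the background within this window. Elements farther from the start were not searched, and action of NRF2 on these genes was not tested. SOD1, PRDX1, PRDX6, TXN2, GSS, GSR and MGST2 had no entry. The matched sites lying wholly before the start are shown with flanking bases so that their variety can be seen. Each is read along the strand of its gene, with the motif in capitals as it lies on that strand.
TXNRD1, chr12:104215670-104215699, plus strand: acacgggctaTGACTTCGCtgttgtcaccg
GCLM, chr1:93909445-93909474, minus strand: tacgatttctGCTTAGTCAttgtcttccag
PGD, chr1:10398853-10398882, plus strand: cctcgccgggGCAATGTCAtctaggtgctc
GSTP1, chr11:67583736-67583765, plus strand: gccggcgccgTGACTCAGCactggggcgga
GSTO1, chr10:104254656-104254685, plus strand: ggcggagggaTGACTGAGCatttataactt
GSTO1, chr10:104254721-104254750, plus strand: cgagatgcttTGACACAGCcccttaagatg
The GSTP1 site also holds the AP-1 motif TGACTCA. A further match in TXNRD1 spans its start. The 5 genes did not share a direction: TXNRD1 and PGD had log2 fold changes of 0.23 and 0.08, and GCLM, GSTP1 and GSTO1 had -0.19, -0.47 and -0.34. Their edgeR adjusted p lay between 0.410 and 0.864.

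The gap between the Ctrl libraries followed base composition in these genes. Over the 39 genes, the log2 difference of Ctrl 2 from Ctrl 1 had a Spearman's rho of 0.87 with transcript GC content (0.85 over 13217 tested genes with a value). These are correlations across genes, which share the same libraries. The 6 genes with at least 0.5 between the Ctrl libraries were KEAP1, TXNRD2, GSTP1, GPX1, PRDX5 and GPX4, all higher in Ctrl 2 and all with GC content of at least 59.6%. GLRX2, at 37.5% GC, was the farthest the other way, at -0.49. Between the knockdown libraries the differences of the 39 genes lay between -0.34 and 0.29. These had a Spearman's rho of 0.58 and a Pearson's r of 0.44 with GC content, the same sign as between the Ctrl libraries. The log2 fold change of the knockdown had a Spearman's rho of -0.31 and a Pearson's r of -0.09 with GC content over the 39 genes, and a rho of -0.0039 over the 13217.

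**Figure D3:**
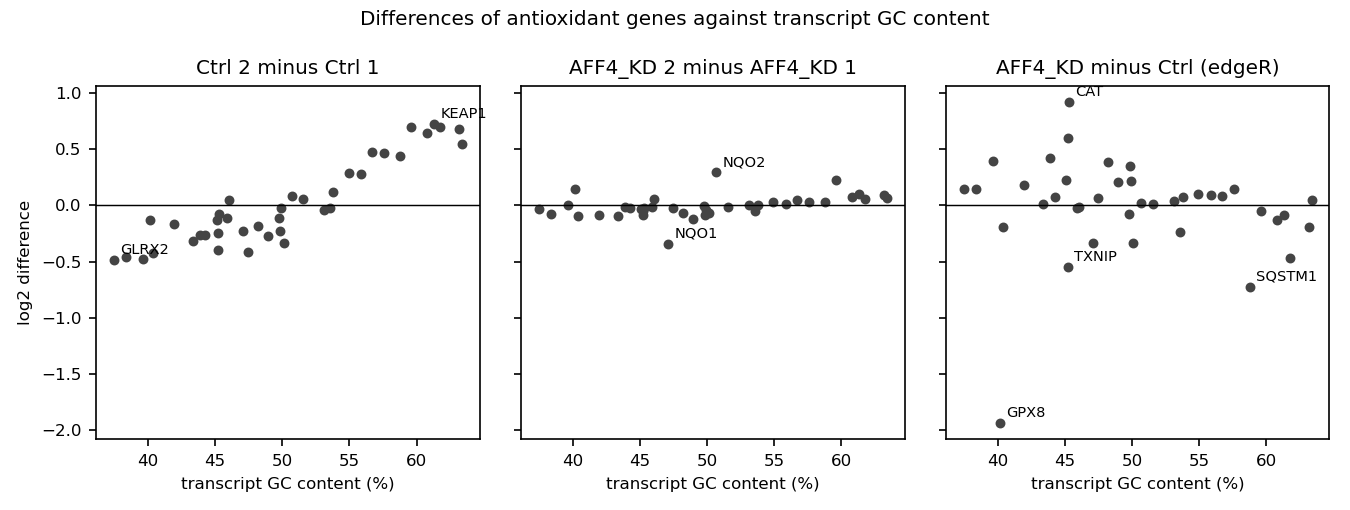
Log2 differences of the 39 tested antioxidant genes against GC content of their transcripts, between the Ctrl libraries (left), between the knockdown libraries (middle) and between the groups (right). The Ctrl difference rises with GC content from -0.49 to 0.73, and CAT, TXNIP and SQSTM1 lie at 45.3%, 45.2% and 58.8% GC.

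When a GC trend was removed from each library, the fold changes hardly moved and the number of calls grew. The largest shift in a log2 fold change among the 39 genes was 0.07, in GLRX2, and the sign changed in 1, GSTK1, which lay at 0.01. After the correction 11 of the 39 genes were higher and 6 lower at an edgeR adjusted p under 0.05, or 28.2% and 15.4%, where 17.9% of all genes were higher and 17.4% lower. The lower share was thus near that of all genes, and the higher share was above it. Neither difference was tested, since these genes share the same libraries and were chosen with earlier results known. The higher genes were CAT, GLRX, MGST1, GCLC, GSTM3, PRDX1, TXNRD1, SOD1, TXN, PRDX3 and PRDX2, with log2 fold changes from 0.92 down to 0.16. The lower genes were GPX8, SQSTM1, TXNIP, GSTP1, GSTO1 and SRXN1, with -1.89, -0.71, -0.55, -0.42, -0.35 and -0.25. NFE2L2, KEAP1 and NQO1 were in neither set (edgeR adjusted p = 0.788, 0.577 and 0.183).

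**Figure D4:**
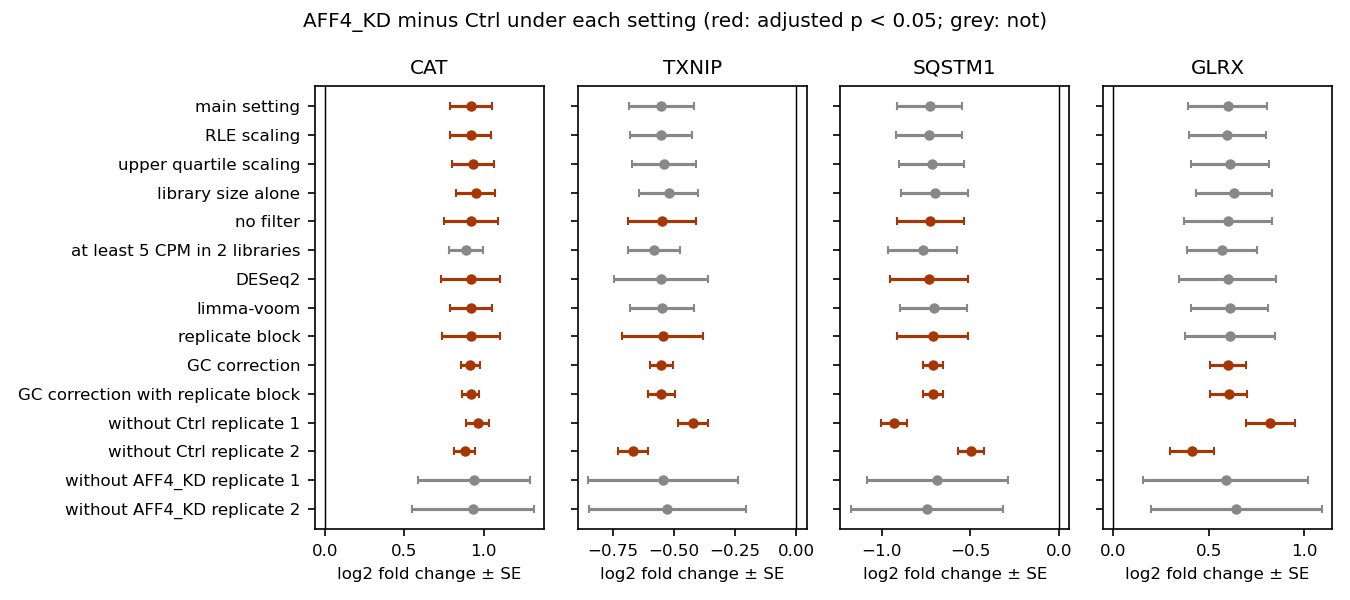
Log2 fold change with its SE for CAT, TXNIP, SQSTM1 and GLRX under the main setting and each of the 14 alternatives, red where the adjusted p is under 0.05 and grey where it is not. The values of CAT stay between 0.88 and 0.96, and the intervals are widest where 1 knockdown library is left out.

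Counts under the other settings are best read beside those of all genes. With no filter on low counts 1 antioxidant gene was higher (CAT) and 3 lower (GPX8, TXNIP and SQSTM1, edgeR adjusted p = 0.0352, 0.0119 and 0.0170), where 1.74% and 2.15% of all genes were. With the 5 CPM filter 0 were called in either direction (5 higher and 3 lower without adjustment), where 0.00925% and 0.037% of all were. A replicate block gave the same 1 and 3 (adjusted p = 0.00921 for GPX8, 0.0212 for TXNIP and 0.00908 for SQSTM1; 3.01% and 3.54% of all genes), and with the GC correction 12 and 8 (21.4% and 20.5%). Without Ctrl 1, 14 were higher and 10 lower (21.5% and 22.5% of all), and without Ctrl 2, 17 and 6 (24.5% and 23.9%). Without AFF4_KD 1 edgeR called 0 (0.252% and 0.0791% of all), and without AFF4_KD 2 also 0 (0.258% and 0.108%), and an unadjusted p under 0.05 was reached by 1 higher and 1 lower gene in each. Other scalings gave 1 and 0, where RLE and upper quartile called 0.346% of all genes higher and 0.302% and 0.295% lower, and library size alone 0.309% and 0.236%.

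The other genes of the pathway were read from the same fit. Of 149 symbols in that list, 148 were in the table and 121 were tested, with 1 higher, 0 lower and a median of -0.03. At an unadjusted p under 0.05, 6 were higher and 11 lower, or 4.96% and 9.09%, close to the 6.79% and 8.19% of all tested genes. DESeq2 called 3 higher and 3 lower (1.39% and 1.64% of all genes), and limma-voom 2 and 0 (0.391% and 0.287%). The called gene was HPGDS, a prostaglandin D synthase that belongs by structure to the glutathione transferases. It was at 10.9 and 8.3 CPM in Ctrl and at 26.6 and 24.4 CPM in the knockdown, clearly apart, with a log2 difference of 1.41 ± 0.21 (SE; edgeR adjusted p = 0.0471). Its call was lost without AFF4_KD 1 (0.191), without AFF4_KD 2 (0.161) and with the 5 CPM filter (0.0717), in a range from 1.02e-27 to 0.191. GSTA2, another transferase, lay at or under 1.19 CPM in each library and had 2.85 ± 0.47 (adjusted p = 0.0579).

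Further genes of that list with small p-values belonged to haem synthesis and NRF2 turnover. FECH, which inserts iron to complete haem, was at 90.1 and 84 CPM in Ctrl and at 142.7 and 138.1 CPM in the knockdown (log2 difference 0.69 ± 0.14, SE; edgeR adjusted p = 0.0872). FBXW11, a ubiquitin ligase subunit that can mark NRF2 for degradation, was at 72 and 60.2 CPM in Ctrl and at 34.5 and 33.9 CPM in the knockdown (-0.95 ± 0.17; edgeR adjusted p = 0.0680). In both genes the groups were well apart, and both passed in DESeq2 (adjusted p = 0.0174 for FECH and 0.000979 for FBXW11), while with either knockdown library left out neither passed in edgeR (adjusted p = 0.99993 and 0.99974 for each).

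By role, the 15 tested genes of NADPH supply had a median log2 fold change of -0.09, and the 16 of cystine uptake and glutathione turnover had -0.18, with 0 past edgeR in each. In these 4 and 5 genes were positive, where 48.8% of all tested genes were, and 6 and 11 had overlapping groups. The 14 haem oxygenase, iron storage and other NRF2-linked genes had -0.05, and the 15 partners and turnover factors of NRF2 had -0.03. The 17 genes of selenoprotein synthesis and other selenoproteins had 0.07, with 0 past the test and 0 at an unadjusted p under 0.05. The 12 other transferases and peroxidases had 0.18, HPGDS among them. The 21 other thioredoxin-fold and methionine sulfoxide repair genes had -0.02, with 0 past edgeR. Before adjustment, p was under 0.05 for NME8, which was higher, and for TXNDC5, TXNDC12, P4HB and MSRA, which were lower. NME8 was low, at 0.70 and 0.74 CPM in Ctrl and at 2.05 and 1.37 CPM in the knockdown. TXNDC5 was at 1.12 and 7.56 CPM in Ctrl, far apart, and at 0.50 and 0.71 CPM in the knockdown. The 11 sources of peroxide and superoxide and copper chaperones had -0.05, with 0 past edgeR. MAOA and CYBB were higher and 1 gene was lower at an unadjusted p under 0.05, where 6.79% and 8.19% of all tested genes were. At that level NADPH supply had 0 higher and 1 lower, cystine uptake and glutathione turnover 0 and 1, and other transferases 2 and 0. The haem oxygenase group had 1 and 2, and the partners of NRF2 had 0 and 2. The 7 genes named here by unadjusted p were named after their values were seen. HMOX1, haem oxygenase and a classical NRF2 target named here after its value was seen, was at 5.62 and 5.36 CPM in Ctrl and at 4.20 and 4.87 CPM in the knockdown, with a log2 difference of -0.28 ± 0.22 (SE; edgeR adjusted p = 0.645).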

How the data were processed

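The authors deposited whole-number counts of reads per gene symbol. The submitters' processing notes name HISAT2 2.1.0, fastp 0.13.1, featureCounts 1.6.1 and hg38, with no role or order. Annotation, strand setting and handling of multi-mapped reads are not stated in the sources used here. The 4 value columns were matched to samples by name. The counts were analysed in edgeR 4.0.16 (R 4.3.3) with filterByExpr (minimum count 10, minimum total 15), TMM scaling, a quasi-likelihood F test on group alone and Benjamini-Hochberg adjustment over 13572 genes. TMM treats most genes as unchanged, so changes are relative to other genes. The SE is the size of the log2 fold change over the square root of F. CPM are on TMM-scaled library sizes, with SD over 2 libraries. Differences between libraries are log2(CPM + 0.5). Total counts of 14903878 to 19129008 set the counting precision, and PCR reads without molecular identifiers are not independent molecules. Positions, exonic lengths and transcript GC content came from GENCODE v29 (GRCh38), which matched 25862 symbols by name and 154 through another symbol, and promoters from RefSeq (GRCh38.p14).

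Alternatives were scaling by RLE, by upper quartile or by library size, 2 other filters, DESeq2 1.42.0, limma-voom (limma 3.58.1), a replicate block, a lowess GC correction (span 0.4), both together, and each library left out. Where this left 1 library in a group, it was taken to vary as the other group did. Genes given in full are those called, the 2 with the smallest p (1 in small groups) and the most abundant of each role, and 5 of the other pathway list, 1 of which is not reported here. The others are summarised or named by log2 fold change. PRDX2, NFE2L2, KEAP1 and HMOX1 are given with values outside this rule, chosen after these were seen. The members and lists were chosen with earlier results of these data known. The main edgeR, DESeq2 and limma-voom fits were also run on simulated counts with equal spread in both groups and no GC trend, unlike these data. The GC correction, the replicate block and the fits with a library left out were not.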

Additional observations from a re-analysis of the deposited data

How the results depend on the processing

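Antioxidant genes called higher numbered 1 and lower 0, and these counts were unchanged with RLE, upper quartile and library-size scaling and in limma-voom. With the filter of 5 CPM 0 were higher, with no filter 3 were lower, and in DESeq2 1 was lower. The GC correction gave 11 higher and 6 lower, or 28.2% and 15.4%, where 17.9% and 17.4% of all genes were. With 1 library left out, the count ranged from 0 to 17 higher and from 0 to 10 lower, with 0 and 0 without either knockdown library, 14 and 10 without Ctrl 1, and 17 and 6 without Ctrl 2. For the other pathway genes (1 higher, 0 lower), the counts were 4 and 4 with no filter (1.74% and 2.15% of all genes). With the 5 CPM filter 0 were higher (0.00925% of all), and in DESeq2 3 were higher and 3 lower (1.39% and 1.64%). In limma-voom 2 were higher (0.391%), and with the GC correction 18 were higher and 26 lower of 121 (17.9% and 17.4% of all). With 1 library left out they ranged from 0 to 30 higher and from 1 to 38 lower, with 1 lower without either knockdown library. The causes of these shifts were not tested.

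The replicate numbers name no shared culture or day. Across 13572 genes the deviations of same-numbered libraries had a Pearson's r of 0.34, and of 0.52 over the 10699 genes of at least 5 CPM. The fit with the replicate block called 1 antioxidant gene higher (CAT) and 3 lower (GPX8, TXNIP and SQSTM1). It called 5 and 4 of the other pathway genes, where 3.01% and 3.54% of all genes were called. The replicate block with the GC correction called 12 and 8, and 24 and 31, where 21.4% and 20.5% of all genes were.

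The median of the antioxidant genes ranged from -0.02 without Ctrl 1 to 0.09 without AFF4_KD 1. Between the Ctrl libraries, the log2 difference of Ctrl 2 from Ctrl 1 over the 39 genes had a median of -0.11. Its median size regardless of sign was 0.27. Of 319 values for the 23 genes chosen by the naming rule, AFF4 included, 5 changed sign. With 1 library left out, GPX1 ranged from -0.49 (without Ctrl 1) to 0.19 (without Ctrl 2), NFE2L1 from -0.035 (without Ctrl 1) to 0.24 (without Ctrl 2), and NQO2 from -0.14 (without AFF4_KD 2) to 0.20 (without AFF4_KD 1), being -0.02 without Ctrl 1. NQO2 was at -0.0088 with the 5 CPM filter. AFF4 lost its call with the 5 CPM filter (edgeR adjusted p = 0.0552). SOD3 and GPX3 were below what this depth can compare.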
